A study of Mus musculus with 5 samples.

Results

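The genes described here encode aminoacyl-tRNA synthetases, the enzymes that load each transfer RNA with its amino acid. They were chosen by gene symbol from a named list, and all 36 were found among the 11352 genes of the deposited expression table: 20 cytosolic synthetases and 16 mitochondrial ones, whose symbols end in 2. The symbols alone decided membership, though the list was drawn up with earlier results of these data known. Expression had been measured by RNA-seq in blood stem and progenitor cells of mice, sorted as Lineage-/KIT+/SCA1+/CD135- cells. Of the 5 libraries, 3 were labelled Cux1-low;NrasG12D (called NrasG12D below) and 2 Cux1-low. Mice of both groups therefore carried the Cux1 knockdown, and both had been given doxycycline and pI:C, an RNA that triggers interferon, over 4 weeks. The groups differed by the NrasG12D allele, which encodes an oncogenic variant of the GTPase NRAS, so the comparison asks what that allele adds to cells in which the transcription factor CUX1 is already reduced. The sources used here give neither the promoter or Cre line behind the allele nor the ages of the mice, and do not tell if libraries came from different animals. P-values therefore measure the spread between these libraries, part of which may be technical.

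Synthetases recognise an amino acid, activate it with ATP and join it to the matching tRNA, which then serves the ribosome. They fall into class I and class II by the fold of the catalytic domain, and in animal cells several cytosolic ones are held with scaffold proteins in a multisynthetase complex. Mitochondria translate their own mRNAs and import a separate set of synthetases encoded in the nucleus. GARS and KARS are exceptions, since 1 gene makes both the cytosolic and the mitochondrial enzyme. Many cytosolic synthetase genes are known targets of ATF4, the transcription factor of the amino acid response, and dividing blood progenitors need charged tRNA for protein synthesis.

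The libraries held 16489711 to 20262498 reads over the listed genes, and a synthetase mRNA was covered by at least 263 reads in every library. Values are normalized CPM, read counts per library size, scaled further by the authors for library composition, and 1 read was worth 0.0481 to 0.0608. On the first principal component over all genes, with 73.8% of the variance, NrasG12D libraries 1, 2 and 3 stood at -29.1, -38.0 and 4.16, and Cux1-low libraries 1 and 2 at 32.8 and 30.1. NrasG12D library 3 thus stood apart from the other libraries of its group, and the genes called are also counted without it for the synthetases, their partners, and the ATF4, proliferation, erythroid and precursor B cell lists. Of the genes for the sorted surface proteins, Kit measured 477, 569 and 816 normalized CPM in NrasG12D libraries 1 to 3, against 1359 and 1373 in the Cux1-low libraries. Ly6a, which encodes SCA1, measured 24.2, 14.2 and 37.7 in NrasG12D and 44.7 and 48.7 in Cux1-low. Flt3, the gene for CD135, which the sort left out, measured 196, 165 and 229.7 in NrasG12D, against 326 and 388 in Cux1-low. Messages of all 3 were thus present in every library. They were lower in each NrasG12D library than in either Cux1-low library, an order seen in 27% of all genes.

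All 20 cytosolic synthetases were expressed in every library, and 19 had a positive log2 fold change of NrasG12D over Cux1-low, as had 49.7% of all genes. The median over the 20 was 0.26 on the log2(normalized CPM + 1) scale, a ratio of 1.20, against -0.003 over all genes. In 16 of the 20, all NrasG12D libraries lay above both Cux1-low libraries, an order seen in 26.5% of all genes. None passed the threshold of limma's test (Benjamini-Hochberg adjusted p under 0.05 over 11352 genes), which called 0.255% of all genes higher in NrasG12D and 0.872% lower. The unadjusted p was under 0.05 for 10 of the 20, all higher in NrasG12D, against 14.8% of all genes in that direction and 31.4% in either. The authors' deposited table called 2 of them higher, Hars and Yars, where it called 6.97% of its genes higher and 9.14% lower. Without NrasG12D library 3, limma called 12 of the 20 higher and 0 lower, where it called 18% of all genes higher and 19.4% lower. In bulk RNA, more cells of a type and more message per cell cannot be told apart.

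The summed level of the 20 cytosolic mRNAs was 5919.6, 5951 and 5509 normalized CPM in NrasG12D libraries 1, 2 and 3, against 4847 and 5004 in the Cux1-low libraries. Every NrasG12D library was above both Cux1-low libraries. Per library, the median difference from the Cux1-low mean was 0.32, 0.28 and 0.19 on the log2 scale in NrasG12D libraries 1, 2 and 3. Library 3 had the lowest value of its group in 14 of the 20 genes, while it was lowest in 39% of all genes. Standard errors of the 20 fold changes ran from 0.09 to 0.17 on the log2 scale.

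**Figure D1:**
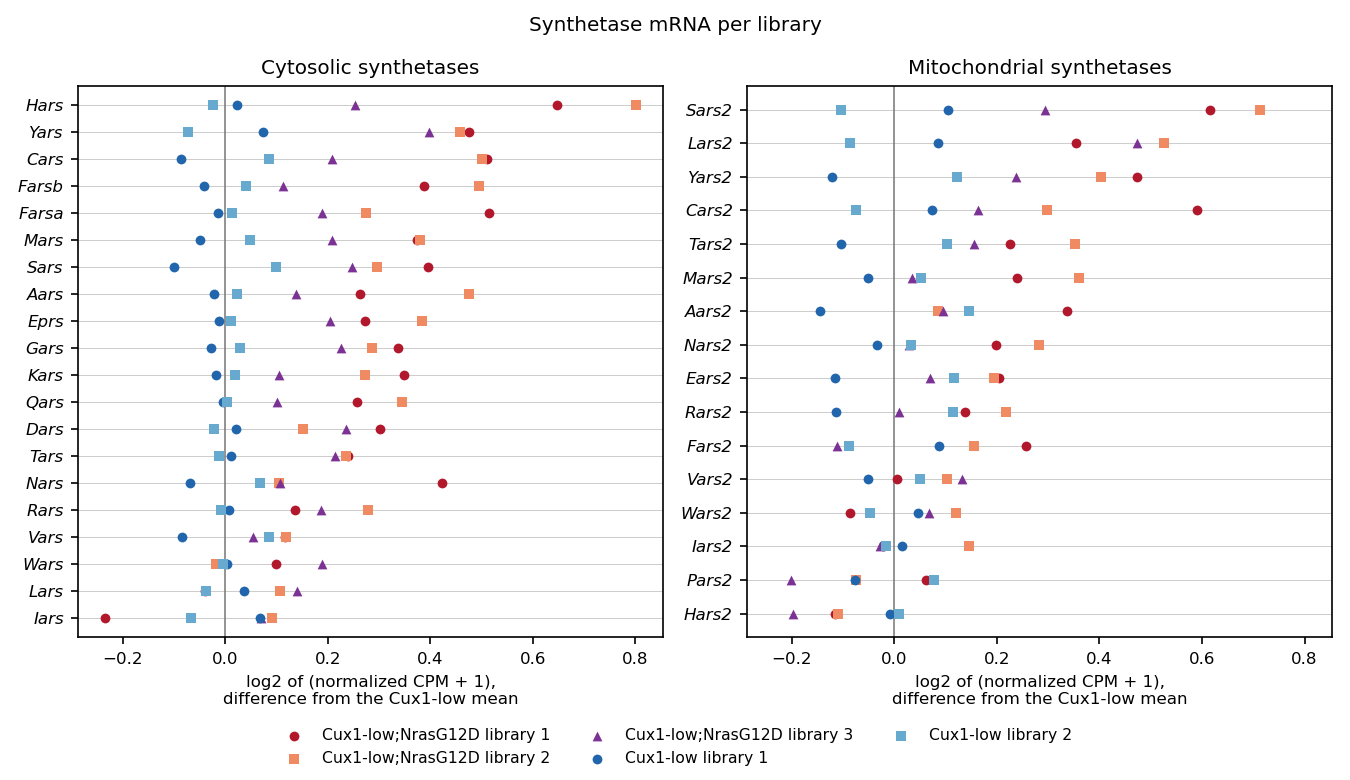
Difference of each synthetase mRNA from its Cux1-low mean on the log2(normalized CPM + 1) scale, 1 symbol per library, with cytosolic genes on the left and mitochondrial genes on the right. The NrasG12D symbols lie right of both Cux1-low symbols in 16 of 20 cytosolic and 5 of 16 mitochondrial genes, and NrasG12D library 3 is often nearest to the Cux1-low symbols.

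Hars, the histidine enzyme, had the largest fold change of the cytosolic group. It measured 275, 306 and 209 normalized CPM in NrasG12D libraries 1, 2 and 3, against 178 and 173 in Cux1-low. The groups did not overlap, but library 3 lay much nearer to the Cux1-low values than the other two did. Its log2 fold change was 0.57 ± 0.17 (SE; n = 3 and 2), with a limma adjusted p of 0.0894, and 0.0249 in the authors' deposited table.

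Yars, the tyrosine enzyme, had the smallest p of all 36. It measured 188, 185 and 178 in NrasG12D, against 142 and 128 in Cux1-low. Here the NrasG12D libraries lay close together, library 3 included, and clear of the other group. The log2 fold change was 0.44 ± 0.10 (SE), with a limma adjusted p of 0.0695, against 0.0161 in the authors' deposited table.

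Cars, which charges cysteine, measured 135, 134 and 109 in NrasG12D and 88.9 and 100.4 in Cux1-low, a log2 fold change of 0.41. Mars, which charges methionine for both the start and the body of a protein, measured 297, 298 and 265 in NrasG12D and 221 and 237 in Cux1-low (0.32). Farsa, the catalytic subunit of the phenylalanine enzyme, measured 286, 242 and 228 in NrasG12D and 198 and 202 in Cux1-low (0.33). None of these 3 overlapped between groups, and their limma adjusted p-values were 0.105, 0.104 and 0.132. Farsb, the partner subunit, had a log2 fold change of 0.33 too, with 255, 275 and 211 in NrasG12D and 189 and 200.2 in Cux1-low. Both subunits of this enzyme thus had the same fold change to 2 decimals.

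Sars, which charges serine and also selenocysteine tRNA, measured 257, 240.0 and 232 in NrasG12D and 182 and 209 in Cux1-low. Gars, the glycine enzyme of cytosol and mitochondria, measured 362, 349.7 and 335 in NrasG12D and 281 and 292 in Cux1-low. Eprs, a fused enzyme for glutamate and proline, measured 463, 499.6 and 441 in NrasG12D and 379.5 and 385 in Cux1-low. Their log2 fold changes were 0.31, 0.28 and 0.29, each with groups that did not overlap, and their limma adjusted p-values were 0.118, 0.112 and 0.121.

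Among the remaining cytosolic genes, Aars (alanine), Dars (aspartate), Kars (lysine, both compartments), Nars (asparagine), Qars (glutamine), Rars (arginine) and Tars (threonine) had log2 fold changes of 0.20 to 0.29, and none of these 7 overlapped between groups. The 4 cytosolic genes whose groups overlapped were Iars, Lars, Vars and Wars, which charge isoleucine, leucine, valine and tryptophan. Iars was the only one with a negative log2 fold change, -0.02 with a 95% confidence interval of -0.34 to 0.29. It measured 203, 255 and 251 in NrasG12D against 251 and 228 in Cux1-low, with NrasG12D library 1 the lowest of the 5. Vars measured 999.5, 1001 and 958 in NrasG12D and 869 and 978 in Cux1-low, a log2 fold change of 0.10. Of Iars exon sequence, 7.15% of stretches of 50 bases also occur in the pseudogene Gm4849, so some of its reads could not be placed with certainty. Of Aars exon bases, 14.3% also belong to Exosc6 on the same strand, and of Farsb exon bases, 9.47% lie opposite Sgpp2.

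The 8 members of the multisynthetase complex (Dars, Eprs, Iars, Kars, Lars, Mars, Qars and Rars) had a median log2 fold change of 0.23, and the 12 enzymes outside it 0.30. By catalytic class, the 10 class I genes had a median of 0.22 and the 10 class II genes 0.29. Eprs was counted with class I for its glutamate part, although its proline part is of class II. All NrasG12D libraries lay above both Cux1-low libraries in 10 of 10 class II genes and in 6 of 10 class I genes, against 26.5% of all genes. These splits were made after the values had been seen and are given as a description.

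Because ATF4 is a known regulator of cytosolic synthetase genes, promoters were searched for its element. RefSeq promoters (GRCm38) were matched for 27 of the 36 genes, 13 cytosolic and 14 mitochondrial. The 250 bases before each start were searched on both strands for TGATGNAA, the amino acid response element. It occurred in 3 of the 13 cytosolic promoters (23.1%), those of Aars, Gars and Tars. It was found in 0 of 15 windows of the mitochondrial genes, and in 3.45% of all 32851 mouse promoters. The stretches below are the matches in Gars and Tars, shown as examples of the element in promoters of this family, 5′ to 3′ on the gene's own strand, with the element in capitals as its reverse complement. In both genes all NrasG12D libraries lay above both Cux1-low libraries, as in 16 of the 20 cytosolic genes and 26.5% of all genes. Tars measured 206, 205 and 202 in NrasG12D, against 176 and 173 in Cux1-low.
Gars, chr6:55037960-55037989, plus strand: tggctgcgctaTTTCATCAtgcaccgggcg
Tars, chr15:11399659-11399684, minus strand: caggagtcccgTTGCATCAgctggtt

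The E-box CACGTG, the motif bound by MYC and related factors, occurred in the promoters of Aars, Farsb and Iars, 23.1% of the 13, and in 6.02% of all promoters. No mitochondrial window held it. TGCGCA, a half-site of NRF1, a regulator of nuclear genes for mitochondria, occurred in Kars and Rars2, and in 6.43% of all promoters. With so few promoters these shares are a description of sequence, and a match does not show that a factor binds there.

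The mitochondrial synthetases had a smaller median difference between the groups. Of the 16, 14 had a positive log2 fold change, the median was 0.16 (a ratio of 1.12), and the groups did not overlap in 5 genes that were higher and 1 that was lower in NrasG12D, against 26.5% and 27% of all genes. Limma called 0 of the 16 in either direction. Its unadjusted p was under 0.05 for 3 of them, Lars2, Sars2 and Yars2, all higher in NrasG12D, a share near the 14.8% of all genes in that direction. The authors' deposited table called 2 higher, Lars2 and Sars2, and 6.97% of all genes higher. Without NrasG12D library 3, limma called 4 higher, the same 3 and Cars2, and 0 lower, against 18% and 19.4% of all genes. Whether the mitochondrial median differs from the cytosolic one was not tested.

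Summed over the 16 genes, the level was 1906, 2024 and 1854 normalized CPM in NrasG12D libraries 1, 2 and 3, against 1604 and 1599.8 in the Cux1-low libraries. The sums did not overlap, although Lars2 alone made up a large share of them. NrasG12D library 3 was the lowest of its group in 12 of the 16 genes.

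Lars2, the mitochondrial leucine enzyme, was the most abundant of the group. It measured 688, 775 and 747 in NrasG12D libraries 1, 2 and 3, against 571 and 507 in Cux1-low. All NrasG12D values were higher, and library 3 lay between libraries 1 and 2. The log2 fold change was 0.45 ± 0.11 (SE), with a limma adjusted p of 0.0765 and an adjusted p of 0.0259 in the authors' deposited table. Of Lars2 stretches of 50 bases, 0.196% also occur on the same strand in transcripts from outside this gene. What reads from there add to its level was not tested.

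Sars2, the mitochondrial serine enzyme, had the largest fold change of the 16. It measured 78.5, 84.0 and 62.6 in NrasG12D, against 54.8 and 47.3 in Cux1-low. The groups did not overlap, with library 3 again nearest to Cux1-low. The log2 fold change was 0.54 ± 0.16 (SE), with a limma adjusted p of 0.0894 and 0.0281 in the authors' deposited table. Sars2 starts 172 bases from Mrps12, a mitochondrial ribosomal protein gene on the opposite strand.

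Yars2 (tyrosine) measured 108, 103 and 91.8 in NrasG12D and 71.3 and 84.6 in Cux1-low, a log2 fold change of 0.37. Cars2 (cysteine) measured 70.9, 57.7 and 52.5 in NrasG12D and 49.3 and 44.4 in Cux1-low (0.35). Tars2 (threonine) measured 198, 216 and 189 in NrasG12D and 158 and 182 in Cux1-low (0.24). These 3 did not overlap between groups, and their limma adjusted p-values were 0.116, 0.176 and 0.194. Mars2, which charges the mitochondrial methionine tRNA, measured 42.8, 46.6 and 37.0 in NrasG12D and 34.8 and 37.4 in Cux1-low, so library 3 lay between the Cux1-low values.

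Hars2, the mitochondrial histidine enzyme, had the most negative fold change of all 36. It measured 76.2, 76.5 and 71.9 in NrasG12D, against 82.1 and 83.1 in Cux1-low, and was the single synthetase with every NrasG12D value below every Cux1-low value. The difference was small, -0.14 on the log2 scale with a 95% confidence interval of -0.38 to 0.10 and a limma adjusted p of 0.373. The other 9 mitochondrial genes, Aars2, Ears2, Fars2, Iars2, Nars2, Pars2, Rars2, Vars2 and Wars2, had overlapping groups and log2 fold changes of -0.07 to 0.17. Of Iars2 exon bases, 22.9% lie opposite exons of Rab3gap2, and of Fars2 exon bases, 8.72% lie opposite Nrn1. Reads there could not be assigned if strand was not used.

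**Figure D2:**
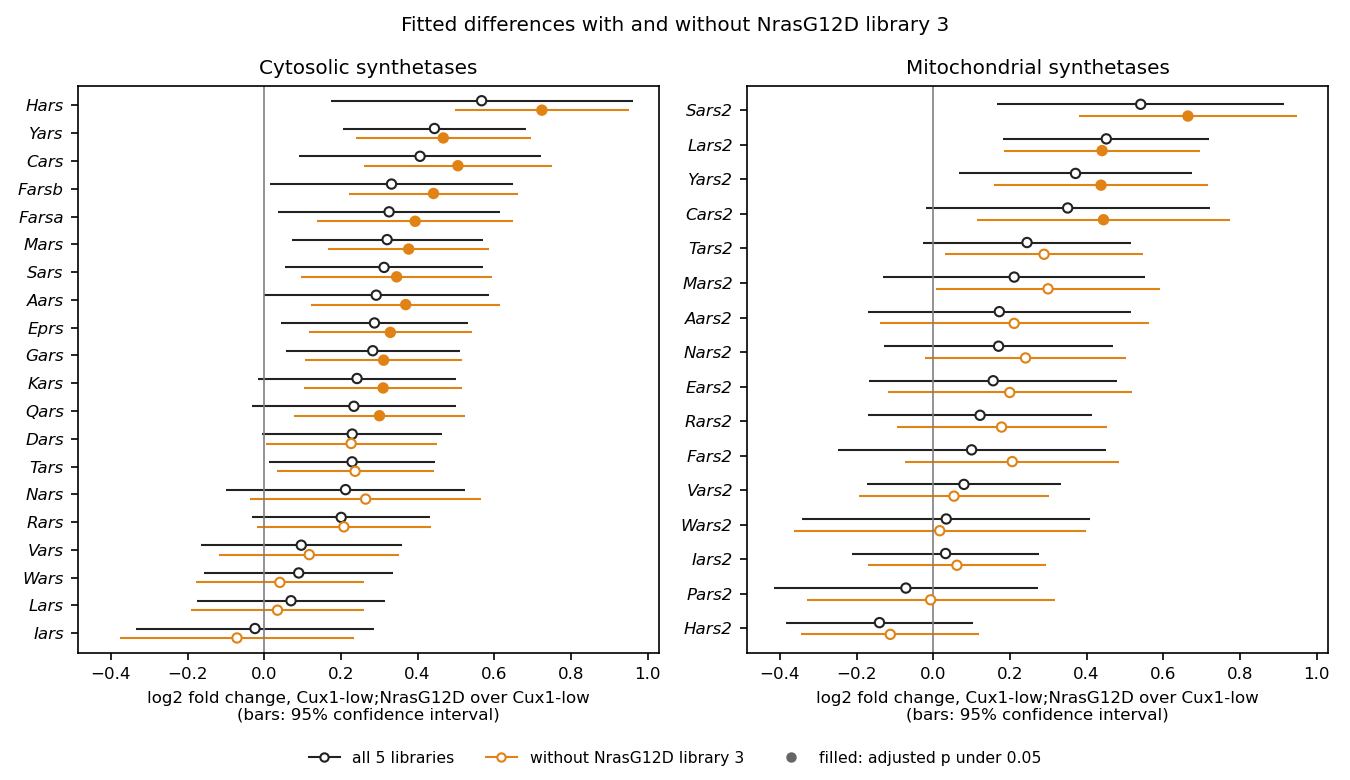
Log2 fold change of NrasG12D over Cux1-low for each synthetase with its 95% confidence interval from limma, from all 5 libraries (black) and without NrasG12D library 3 (orange), where a filled symbol marks an adjusted p under 0.05. No black symbol is filled, while 12 cytosolic and 4 mitochondrial orange symbols are, and the 2 sets of fold changes lie close together.

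Leaving out NrasG12D library 3 changed the calls more than the sizes. The cytosolic median was 0.31 without it, against 0.26 with all libraries, and the mitochondrial median 0.21 against 0.16. Hars had a limma adjusted p of 0.00327 without library 3, the smallest of the 36, with a log2 fold change of 0.72. Sars2 had 0.00779 (0.66), Yars 0.0117 (0.47) and Lars2 0.0207 (0.44). The fit then rests on 2 libraries per group, and 37.4% of all genes passed the threshold in either direction, against 1.13% with all 5 libraries.

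Cytosolic and mitochondrial genes were paired by symbol, the mitochondrial one ending in 2, and the 13 pairs found were compared within each library. Eprs with Ears2 and Pars2, and Farsa and Farsb with Fars2, also serve the same amino acids. Their symbols do not match in this way, and they were left out. The cytosolic gene had the more positive fold change in 9 of the 13 pairs. Hars and Hars2 formed the pair that differed most. Their ratio of normalized CPM was 3.61, 4.01 and 2.91 in NrasG12D libraries 1, 2 and 3, against 2.17 and 2.08 in Cux1-low, so each NrasG12D library was above both others. The difference of the log2 ratio was 0.71, with an exact two-sided permutation p of 0.1 over the 10 arrangements, the smallest this design allows, and 0.65 after Benjamini-Hochberg adjustment over the 13 pairs.

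For leucine the order was the other way. The ratio of Lars to Lars2 was 0.376, 0.370 and 0.392 in NrasG12D, against 0.478 and 0.512 in Cux1-low, with no overlap. The difference of the log2 ratio was -0.38, with the same exact permutation p of 0.1 and adjusted value of 0.65. Lars itself measured 259, 287 and 293 in NrasG12D and 273 and 259 in Cux1-low, with overlapping groups. The other 11 pairs had an exact permutation p of 0.2 or more.

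Hars and Hars2 are neighbours on chromosome 18 of the mouse genome (mm10). Hars lies at 36766528 to 36783205 on the minus strand and Hars2 at 36783008 to 36792562 on the plus strand, so they start head to head and overlap by their first exons. The shared exon bases number 195, which is 7.97% of the exon bases of Hars and 4.56% of those of Hars2. The sources used here do not say whether reads were counted by strand, so reads from these bases could not be assigned to either gene with certainty.

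**Figure D3:**
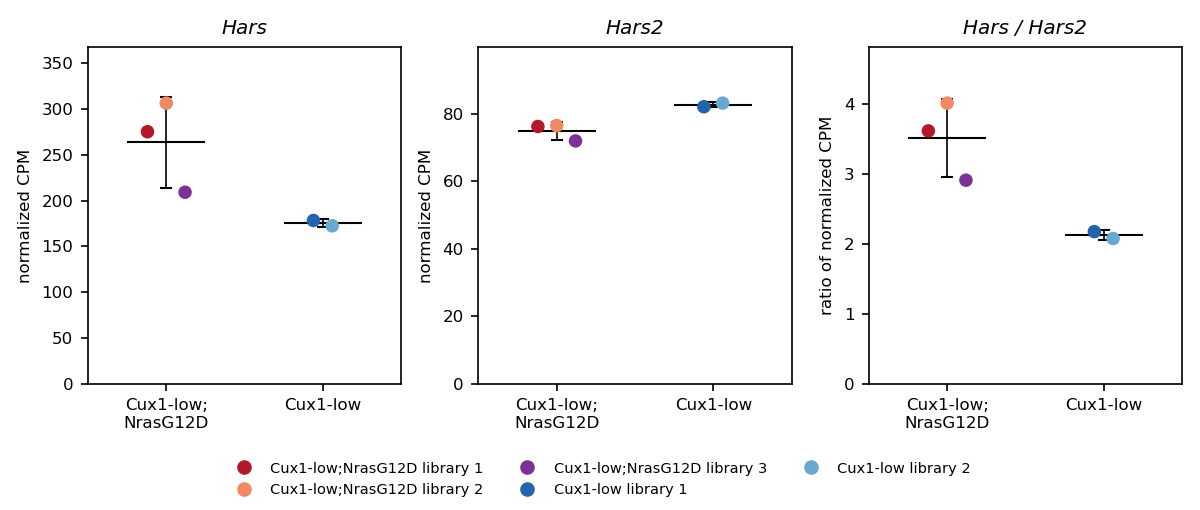
Normalized CPM of Hars, of Hars2 and their ratio in each library, with the group mean (bar) and SD (whisker) over 3 NrasG12D and 2 Cux1-low libraries. The NrasG12D libraries lie above Cux1-low for Hars and for the ratio, which is 2.91 to 4.01 against 2.08 to 2.17, and slightly below for Hars2.

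Levels of different genes were compared per kb of merged exons. Vars was the most abundant cytosolic synthetase, at 176 ± 4.40 normalized CPM per kb in NrasG12D and 165 ± 13.7 in Cux1-low (SD, n = 3 and 2), and stood above all others in all 5 libraries. Gars followed with a mean of 104 over all libraries, then Hars with 93.3, Farsb with 86.2 and Dars with 83.3. Gars stood above Farsb and Dars in all 5 libraries, but below Hars in NrasG12D library 2. Hars, Farsb and Dars changed places between libraries, so their order was not resolved. Cars was the lowest with a mean of 17.2, next to Qars with 17.6, above which it stood in 2 libraries. Wars, Lars, Farsa, Nars and Rars lay between 50.4 and 55.4, and they too changed places between libraries.

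Mitochondrial synthetase mRNAs lay at lower levels. Their median over genes was 14.0 normalized CPM per kb, against 50.9 for the cytosolic genes. Lars2 led with 66.4 ± 4.02 in NrasG12D and 48.6 ± 4.09 in Cux1-low (SD, n = 3 and 2), above Rars2 in all 5 libraries. Rars2 and Yars2 followed with means of 33.3 and 29.1. Wars2, the mitochondrial tryptophan enzyme, was the lowest at a mean of 2.60, with 14.3, 16.6 and 16.0 normalized CPM before division by length in NrasG12D and 15.7 and 14.7 in Cux1-low. With the length of the longest transcript in place of merged exons the medians were 73.1 and 18.4, and Vars, Cars, Lars2 and Wars2 kept their places at the ends of the order. Dars then ranked 2 and Eprs 10 among the cytosolic genes, where merged exons gave them ranks 5 and 18.

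**Figure D4:**
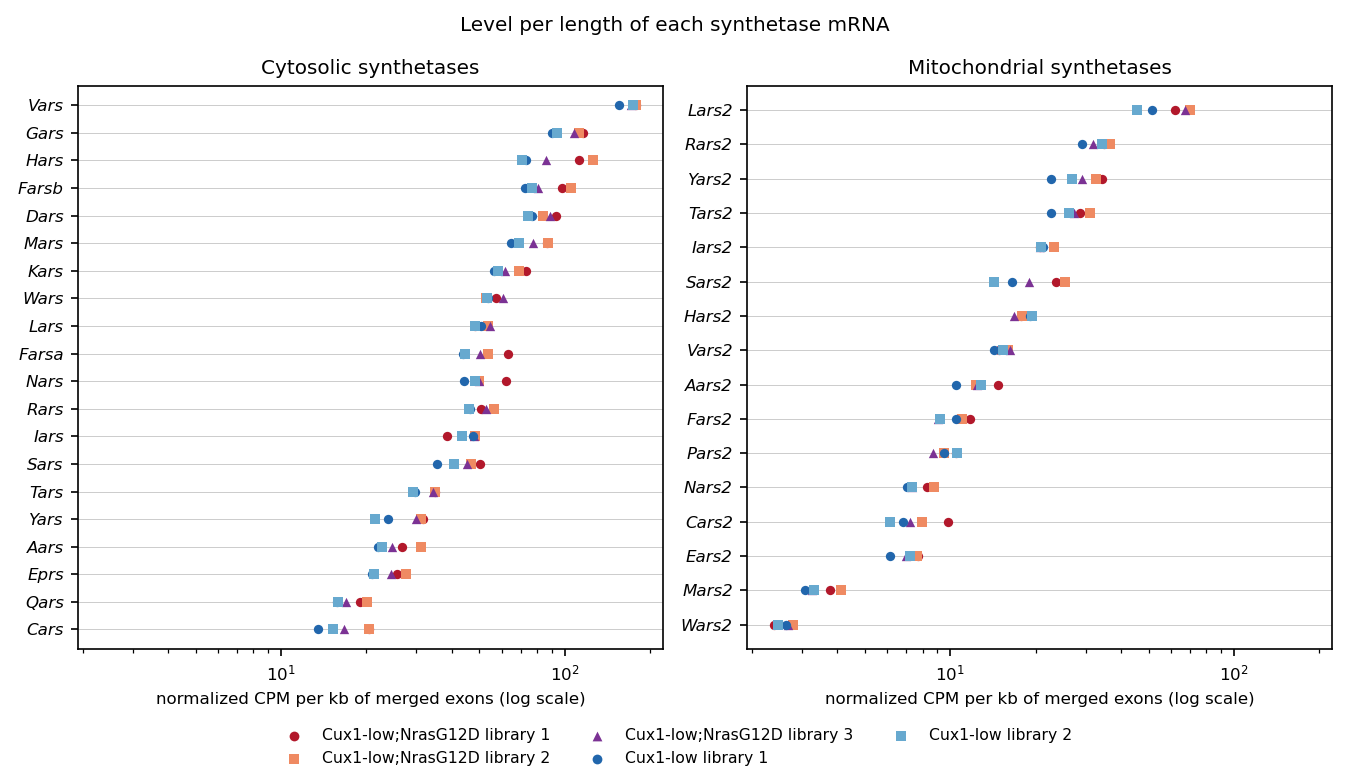
Normalized CPM per kb of merged exons (log axis) of each synthetase mRNA in each library, ordered by the mean over the 5 libraries, with cytosolic genes on the left and mitochondrial genes on the right. The range runs from Vars (mean 171) to Cars (17.2) among cytosolic genes and from Lars2 (59.3) to Wars2 (2.60) among mitochondrial ones, and libraries of both groups lie close together beside the spread between genes.

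Tarsl2, a second threonine enzyme, was also in the table but not on the list of members. It measured 73.7, 93.8 and 58.9 in NrasG12D and 50.1 and 47.2 in Cux1-low, a log2 fold change of 0.60 with a limma adjusted p of 0.103, and 0.0355 in the authors' deposited table.

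The 3 scaffold genes of the multisynthetase complex had positive log2 fold changes, with a median of 0.42. Aimp1 measured 68.8, 63.1 and 56.3 in NrasG12D and 45.7 and 47.1 in Cux1-low. Aimp2, which ties the complex together, measured 150.1, 143 and 127 in NrasG12D and 103 and 117 in Cux1-low. Eef1e1, known as AIMP3, measured 102, 109 and 82.6 in NrasG12D and 69.4 and 68.6 in Cux1-low. None of the 3 overlapped between groups and 0 passed limma's threshold, with unadjusted p under 0.05 for all 3. Over all genes, 26.5% lay higher without overlap and 14.8% had such a p in that direction. The authors' deposited table called Eef1e1 higher, with an adjusted p of 0.0290. Limma called all 3 higher without NrasG12D library 3, where it called 18% of all genes higher.

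Of 18 genes for tRNA maturation, export, editing and delivery, 14 had a positive log2 fold change and the median was 0.20. Limma called 0 of them, with unadjusted p under 0.05 for 8, all higher in NrasG12D, against 14.8% of all genes. Without NrasG12D library 3 it called 7 higher and 0 lower, against 18% and 19.4% of all genes. The authors' deposited table called 3 higher, against 6.97% of all genes. These were Aarsd1, which removes serine wrongly joined to alanine tRNA, and Eef1d and Eef1g, subunits of the factor that recharges elongation factor 1A with GTP. Aarsd1 measured 162, 153 and 119 in NrasG12D and 91.1 and 93.2 in Cux1-low, and Eef1g 49.3, 50.3 and 43.1 in NrasG12D and 32.7 and 29.7 in Cux1-low. Xpot, the exporter of tRNA from the nucleus, had a log2 fold change of -0.03.

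Of 16 partners in mitochondrial translation, 14 had a positive log2 fold change with a median of 0.14, and limma called 0. The unadjusted p was under 0.05 for 3, all higher in NrasG12D, a share near the 14.8% of all genes. Without NrasG12D library 3, limma called 3 higher and 0 lower, against 18% and 19.4% of all genes. The 3 with an unadjusted p under 0.05 were Tsfm and Gfm1, elongation factors of the mitochondrial ribosome, and Mto1, which modifies mitochondrial tRNA. The authors' deposited table called 0 of the 16. Tsfm measured 112, 105 and 74.8 in NrasG12D and 61.8 and 72.4 in Cux1-low, with no overlap.

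The amino acid response was examined through 30 measured genes of a list of 34 that follow or feed into ATF4. Atf3, Atf5, Chac1 and Slc7a11 were not measured. Over all genes, limma called 0.255% higher in NrasG12D and 0.872% lower. Of the 30 it called 1, Mthfd2, a mitochondrial enzyme of one-carbon metabolism. It rose to 60.4, 60.9 and 56.5 in NrasG12D, against 36.8 and 35.5 in Cux1-low, a log2 fold change of 0.70 with a limma adjusted p of 0.0498, just under the threshold, and 0.000327 in the authors' deposited table. The other genes of the list differed in both directions. The log2 fold change was positive for 24 and negative for 6, with a median of 0.17. The unadjusted p was under 0.05 for 10 genes higher and 4 genes lower in NrasG12D, against 14.8% and 16.5% of all genes. The authors' deposited table called 5 higher and 4 lower, against 6.97% and 9.14% of all genes. Without NrasG12D library 3, limma called 10 higher and 5 lower, against 18% and 19.4% of all genes.

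Atf4 itself measured 253, 236 and 247 in NrasG12D and 188 and 183 in Cux1-low, with no overlap, a log2 fold change of 0.40 and a limma adjusted p of 0.0726. Asns, asparagine synthetase, measured 248, 318 and 165 in NrasG12D and 128 and 123 in Cux1-low (0.90). Trib3, an ATF4 target that restrains the response, had the opposite sign, with 2.97, 2.68 and 4.37 in NrasG12D and 9.71 and 9.96 in Cux1-low, a log2 fold change of -1.34 and a limma adjusted p of 0.0508. Nupr1, also known as a target of ATF4, had a log2 fold change of -1.45, and Ddit3, which encodes CHOP, 0.11. Atf4 and most synthetases thus had higher values in NrasG12D, while Trib3 and Nupr1 had lower ones.

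**Figure D5:**
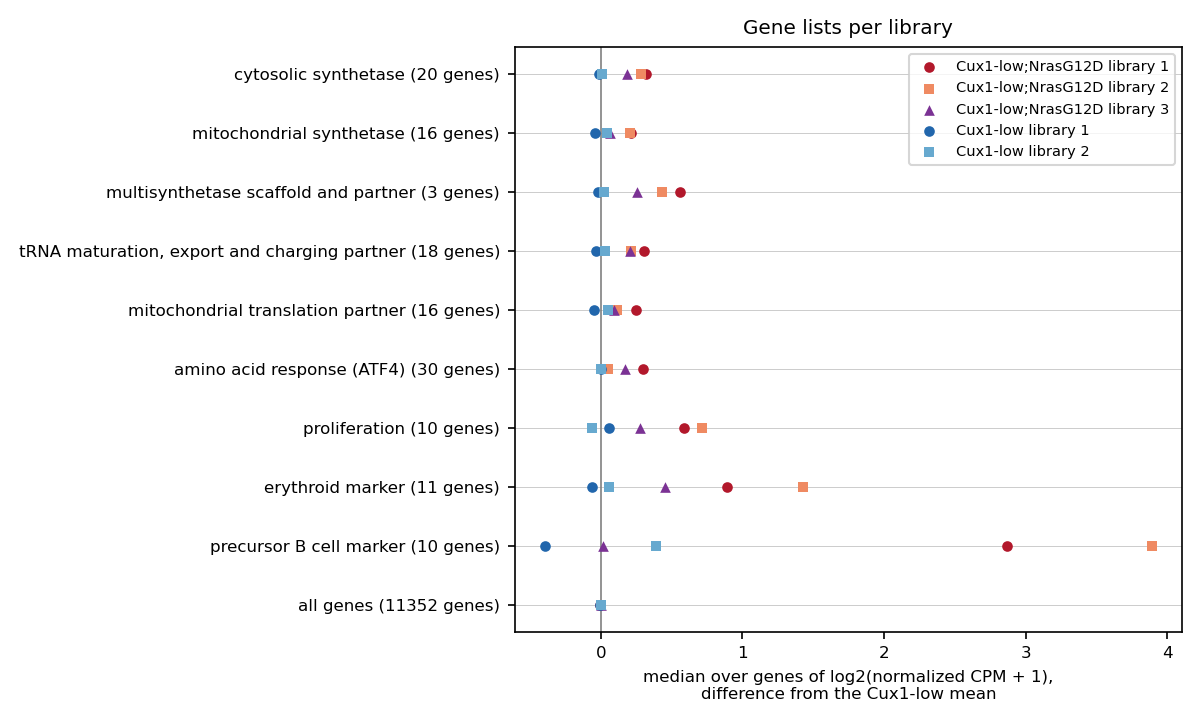
Median over the genes of each list of the difference from the Cux1-low mean, on the log2(normalized CPM + 1) scale, 1 symbol per library. The cytosolic synthetases stand at 0.32, 0.28 and 0.19 in NrasG12D libraries 1, 2 and 3, and the proliferation, erythroid and precursor B cell lists stand further to the right in libraries 1 and 2 than in library 3.

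Gene groups of proliferation and of other cell types differed between the same libraries. All 10 proliferation genes had a positive log2 fold change, with a median of 0.50. All 10 lay higher in NrasG12D without overlap, against 26.5% of all genes. Mki67 measured 405, 527 and 359 in NrasG12D and 259 and 247 in Cux1-low. Limma called 0 of the 10, and 10 without NrasG12D library 3, with unadjusted p under 0.05 for 8 and 6 called in the authors' deposited table. Over all genes, 18% were called higher without library 3, 14.8% had such a p and were higher, and 6.97% were called higher in the authors' deposited table. E2f1, a driver of S phase genes, had the smallest p of the list, with 118, 116 and 105 in NrasG12D and 77.9 and 65.5 in Cux1-low. Library 3 was the lowest of the NrasG12D libraries in 10 of 10 proliferation genes, 11 of 11 erythroid and 10 of 10 precursor B cell markers. It was lowest in 14 of 20 cytosolic synthetases, 12 of 16 mitochondrial ones and 39% of all genes.

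All 11 measured erythroid markers of a list of 15 had a positive log2 fold change with a median of 0.93. All 11 lay higher in NrasG12D without overlap, against 26.5% of all genes. Their summed level was 8697, 12104 and 6139.95 in NrasG12D libraries 1, 2 and 3, against 4963 and 5432 in Cux1-low. Klf1, a defining regulator of red cell precursors, measured 423, 533 and 270.4 in NrasG12D and 166 and 209 in Cux1-low. The 10 measured precursor B cell markers of 13 summed to 497, 918 and 142 in NrasG12D, against 176 and 250.2 in Cux1-low, so library 3 lay below both Cux1-low libraries, where its cytosolic synthetase sum lay above them. The 10 measured granulocyte and monocyte markers of 12 summed to 20019, 13381 and 8511 in NrasG12D, and 7866 and 11044 in Cux1-low. Mpo alone made up most of each sum, with 16346, 10968 and 6917 in NrasG12D and 6253 and 8799 in Cux1-low. Of the 10, 8 had a positive log2 fold change and 2 a negative one, Itgam and Lyz2. Stem cell markers, 7 measured of 8, summed to 233, 190.4 and 533 in NrasG12D and 907 and 956 in Cux1-low. The log2 fold change was negative for 6 of them and positive for 1, Slamf1, with a median of -1.73. Limma called 0 of the 7. All 6 negative ones lay lower in NrasG12D without overlap, against 27% of all genes. Their unadjusted limma p was under 0.05, against 16.5% of all genes in that direction. The authors' deposited table called 6 lower, against 9.14% of all genes. Limma called 0 of the erythroid and 0 of the precursor B cell markers, with unadjusted p under 0.05 and higher in NrasG12D for 10 and 4, against 14.8% of all genes. The authors' deposited table called 9 and 6 higher, against 6.97% of all genes. Without NrasG12D library 3 limma called 11 and 10 higher, against 18% of all genes. With all libraries, limma called 2 of 8 mast cell, basophil and eosinophil markers lower, Epx and Prg2. It also called 1 of 6 dendritic cell markers lower, H2-Aa, where it called 0.872% of all genes lower. Of the 8, 4 had a negative log2 fold change and 4 a positive one, Cpa3, Mcpt8, Prss34 and Ms4a2. Of the 6 dendritic cell markers, 5 were negative and 1 was positive. Of 10 megakaryocyte and platelet markers, 9 had a negative log2 fold change and limma called 0. Their unadjusted limma p was under 0.05 for 4, all lower in NrasG12D, against 16.5% of all genes in that direction. The authors' deposited table called 3 of them lower, against 9.14% of all genes. No measured marker of these lists was at 0 in any library. The part of proliferation and of cell makeup in the synthetase differences was not tested.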

How the data were processed

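RNA-seq was measured in 3 Cux1-low;NrasG12D and 2 Cux1-low libraries, made with an Illumina TruSeq v2 kit from Trizol RNA, per the labels' protocols. The submitters' processing notes name TopHat, HTSeq, edgeR and the builds hg19 and mm10, without versions or roles. The deposited table holds 1 signal value per library headed CPM, per the file headers. The columns sum to 971746 to 1026780, so the authors had scaled them for composition, and they are called normalized CPM here. The deposited table also gives the authors' own log2 fold change, likelihood ratio score, p-value and adjusted p-value. Each listed gene exceeds 1 in at least 3 libraries.

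Every value was a whole multiple of 1 read's worth within 0.001, which gave depth. No test between the groups was run on these reads, since the recovered counts did not pass the unit check. The table was fitted with limma 3.58.1 (R 4.3.3; trended variance) on log2(normalized CPM + 1), two-sided, adjusted by Benjamini-Hochberg over 11352 genes at a threshold of 0.05. A filter asking for a value of 1 or more in 2 libraries removed 0 genes. The pseudocount understates changes of low genes. The script was tested on simulated data. All pairs of libraries differed beyond sampling noise in the recovered reads, with a chi-square per degree of freedom of 15.25 to 116.1. Coordinates and lengths come from GENCODE M21 (GRCm38, the same build as mm10), promoters from RefSeq (GRCm38.p6). Figures and tables used Python 3.11.15 with pandas 2.3.3 and matplotlib 3.10.9.

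Some items are not reported here. The synthetases and the other gene lists were chosen with earlier results of these data known. Genes named with every library's value were the 8 cytosolic and 6 mitochondrial ones with the smallest p, the extremes of level and the most negative fold change in each class. Tars, Farsb, Lars and Tarsl2 were added after their values were seen. Of the other lists, genes past the threshold, or else up to 4 with the smallest p, were named, and Xpot, Atf4, Asns, Trib3, Nupr1, Ddit3 and Klf1 were chosen after their values were seen. Alternatives were other pseudocounts, filters, scalings and variance priors, a replicate block, and each library left out.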

Additional observations from a re-analysis of the deposited data

How the results depend on the processing

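The fold changes kept their sign under most settings, while the calls depended on NrasG12D library 3. Leaving out 1 library at a time gave 0 to 12 cytosolic and 0 to 4 mitochondrial synthetases called, and 3 to 4243 of all genes, the highest counts being without NrasG12D library 3. Over the same fits the cytosolic median log2 fold change was 0.23 to 0.31 and the mitochondrial median 0.11 to 0.25. With a replicate block, 9 cytosolic synthetases, 4 mitochondrial ones and 4163 of all genes (1892 higher and 2271 lower in NrasG12D) were called. The sources used here do not say that replicate numbers pair the libraries. Deviations of same-numbered libraries from their group means correlated at -0.19 and -0.0035. These values cannot decide pairing, since the deviations of the 2 Cux1-low libraries mirror each other. Under the block NrasG12D library 3, which has no partner, gets a term of its own. No other setting called a synthetase. Columns rescaled to equal sums gave 213 called genes (31 higher and 182 lower, against 29 and 99), shifted the median of all genes to -0.06 and left medians of 0.20 for cytosolic and 0.10 for mitochondrial synthetases. With the longest transcript as length, the median levels per kb were 73.1 for cytosolic and 18.4 for mitochondrial synthetases. Single genes were followed only for those with the smallest p, the extremes of level and the most negative fold changes. Among these the sign turned for Iars without NrasG12D library 1 (0.0811) and without Cux1-low library 1 (0.0433). It turned for Wars2 with equal sums (-0.0268), without NrasG12D library 2 (-0.0093) and without Cux1-low library 2 (-0.0132). Other members turned too, since 4 mitochondrial fold changes were negative with equal sums and 4 without NrasG12D library 2, against 2 in the main fit. Over the fits that left out 1 library, Iars ran from -0.0914 to 0.0811 and Wars2 from -0.0132 to 0.0939. The causes were not tested. With 3 and 2 libraries per group, the standard errors of 0.09 to 0.17 on the log2 scale limit what could be called, and a synthetase that missed the threshold is not shown to be equal in both groups.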
